A study of Mus musculus with 6 samples.

Results

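Alpha-arrestins are a family of adaptor proteins that share the arrestin fold, and the set described here holds the 5 of them that carry PPxY motifs (Txnip, Arrdc1, Arrdc2, Arrdc3 and Arrdc4) with the 3 transcription factor genes of the Mondo system that act on several of them (Mlxip, Mlxipl and Mlx). The genes were taken by name: each identifier of the deposited exon table was matched to its mouse symbol, and all exon bins of the 8 listed genes were kept, which gave 8 of 48005 gene identifiers and 188 of 425461 bins. A bin is a stretch of exon cut wherever the annotated transcripts of a gene differ. The study measured total RNA from 6 hearts of C57BL/6 mice by RNA sequencing. In 3 of them the label is wild-type with a Txnip flox allele, and in the other 3 it is conditional knock-in, with the PPXY motif of Txnip changed to AAXA. All 6 mice carried MerCreMer, a Cre recombinase that acts only after an oestrogen receptor ligand is given, and all received 4-hydroxytamoxifen. The promoter that drives MerCreMer, the age and the sex of the mice are not named in the labels, nor is which of the motifs was changed.

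Hearts are called WT1 to WT3 and KI1 to KI3; the numbers name hearts and pair none of them. The wild-type libraries held 30329004 to 30625093 summed counts and the knock-in libraries 31989883 to 34016586, and the mitochondrial genome took 11.6% to 14.0% of them. Cardiomyocyte markers (Myh6, Actc1, Tnnt2, Myl2 and Pln) summed to 75589 to 80535 CPM, the count scaled to library size, in WT1 to WT3 and 84903 to 91225 in KI1 to KI3, and markers of fat, liver and lung to at most 0.772 CPM. Nothing in the labels says that the libraries of a group came from separate litters, so p-values measure the spread between these hearts. According to the design text the wild-type hearts also served another study, and no preparation or sequencing batch is labelled; where preparation differed between the groups, it and genotype cannot be told apart. Reads also spread differently along transcripts in the 2 groups, by the counts in the last and the first of 3 parts of the exons. The parts were equal in bases, but each bin was counted whole in the part that held its middle. A long bin can therefore reach beyond its part. Over 1700 long genes, the median log2 ratio of the last to the first part was 0.69, 0.48 and 0.29 in WT1 to WT3. In KI1 to KI3 it was -0.09, -0.24 and -0.17.

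Txnip, thioredoxin-interacting protein, binds thioredoxin and lowers glucose uptake by bringing glucose transporters into the cell. Its relatives Arrdc1 to Arrdc4 bind membrane receptors and transporters, among them the beta-adrenergic receptors, and their PPxY motifs (2 prolines, any residue and a tyrosine) bind the WW domains of ubiquitin ligases of the Nedd4 family, such as Itch. MondoA, encoded by Mlxip, and ChREBP, encoded by Mlxipl, sense glucose 6-phosphate and related sugar phosphates. Each pairs with Mlx and binds carbohydrate response elements, which hold a pair of E-box-like sequences. Txnip and Arrdc4 are known MondoA targets, and Txnip in turn limits the uptake of the sugar that activates MondoA.

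The coding sequences of the main transcripts hold 2 PPxY motifs in each of the 5 alpha-arrestins. They are shown because the knock-in allele alters this motif in Txnip and because the bins described below cover it. In Txnip both motifs lie in exon 7 of transcript Txnip-202, at residues 332 to 335 and 376 to 379 of 397. The exon spans chr3:96560208-96560359 on the plus strand of GRCm38 and has 152 bases, read here from the GENCODE transcript with the codons of both motifs in capitals.
Txnip exon 7: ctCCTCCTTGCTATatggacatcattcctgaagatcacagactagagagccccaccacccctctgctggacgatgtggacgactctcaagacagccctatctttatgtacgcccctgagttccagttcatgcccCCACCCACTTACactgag
Arrdc2, Arrdc3 and Arrdc4 also have both motifs in exon 7, and in these 4 genes the first motif starts after 2 bases of the exon. The second starts after 134 bases in Txnip, 140 in Arrdc2 and 137 in Arrdc3 and Arrdc4. Arrdc1 differs, with its motifs in exons 7 and 8. The first motif of each relative is given with 15 bases on either side, in the sense of the transcript, so that the shared start of exon 7 can be compared.
Arrdc1: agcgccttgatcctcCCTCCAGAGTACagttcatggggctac
Arrdc2: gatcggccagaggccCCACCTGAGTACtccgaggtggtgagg
Arrdc3: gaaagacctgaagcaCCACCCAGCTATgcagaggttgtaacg
Arrdc4: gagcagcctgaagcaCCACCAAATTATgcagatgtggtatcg

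A search of RefSeq promoter windows (GRCm38.p6, 250 bases before to 50 after a start, both strands) for a tandem E-box pattern of the kind found in carbohydrate response elements, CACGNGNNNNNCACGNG, found it in 16 of 32851 windows, or 0.0487%. Of the 11 windows of the 8 genes it occurred in that of Txnip alone, at chr3:96557872-96557888, 85 to 69 bases before the start.
Txnip promoter: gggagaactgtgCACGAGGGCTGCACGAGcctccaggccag
The capitals mark the pattern. The single E-box CACGTG occurred in 7.15% of all windows and in windows of Arrdc4, Mlxipl and Mlx. The tandem match in Txnip holds CACGAG at both ends, so the matches of both patterns do not overlap. These are matches of letters, not measured binding sites.

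Among the 8 genes, Txnip was by far the most abundant RNA in every heart. Per kilobase of its main transcript it reached 319 ± 10.7 CPM in the wild-type group and 210 ± 72.0 in the knock-in group (SD, n = 3 each), and no heart had less than 128. Mlx followed with 12.2 ± 1.21 and 10.3 ± 1.47 CPM per kilobase. The levels per kilobase of the remaining 6 genes ran from 0.989 ± 0.248 for Arrdc4 to 6.06 ± 4.74 for Arrdc2 in wild-type and from 0.824 ± 0.117 for Arrdc4 to 7.13 ± 0.877 for Arrdc3 in knock-in hearts. In wild-type hearts the order below Mlx was Arrdc2, Arrdc3, Mlxipl, Mlxip, Arrdc1 and Arrdc4; Arrdc2 overlapped each of them but Arrdc4, Arrdc3 and Mlxipl overlapped, and no other neighbours in that order did. In knock-in hearts Arrdc3 stood above Arrdc2 without overlap, Mlxip (3.16 ± 0.249) and Mlxipl (3.08 ± 0.425) overlapped, and so did Arrdc1 and Arrdc4. A read counts in every bin it spans, so genes cut into many short bins gain in these orders over genes with long bins. How far this sets the order was not tested.

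**Figure D1:**
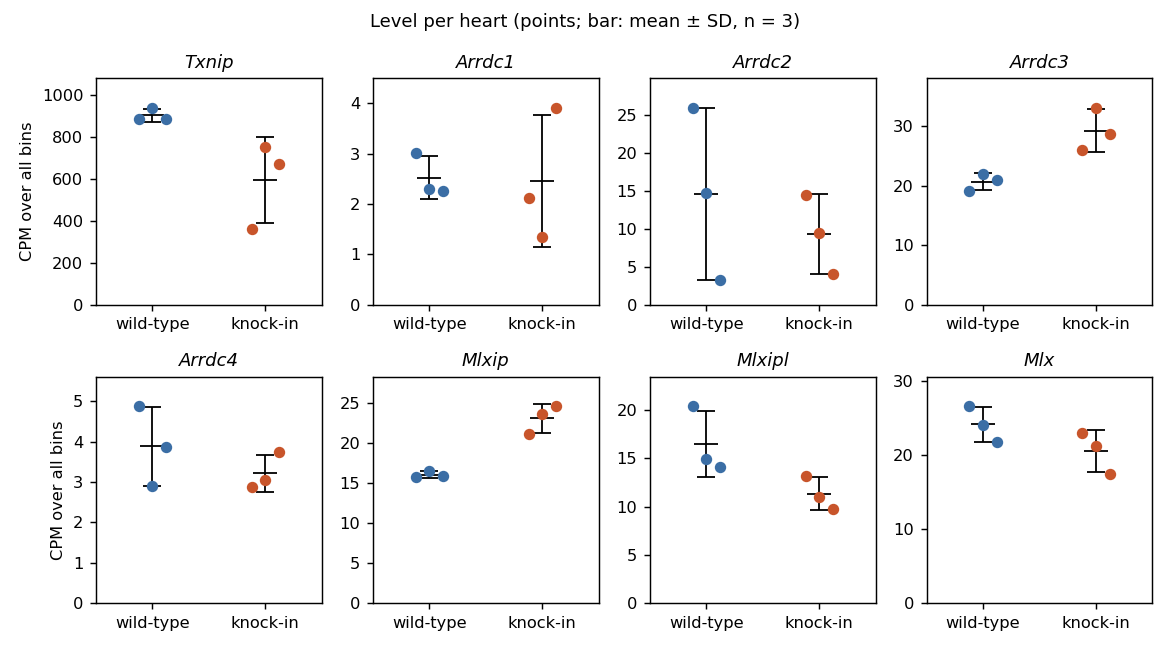
CPM over all bins of each gene (linear axes from 0, 1 scale per gene) in 3 wild-type (blue) and 3 knock-in hearts (orange); points are hearts, and bars the mean ± SD. The groups are apart for Txnip, Arrdc3, Mlxip and Mlxipl, and Arrdc2 spreads from 3.25 to 26.0 CPM within the wild-type group.

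Between the genotypes, Arrdc3 and Mlxip were higher in knock-in hearts and none of the 8 genes passed the test as lower. The test was edgeR's quasi-likelihood test with Benjamini-Hochberg adjustment over all 13066 genes tested, called at an adjusted p under 0.05. It called 6.74% of all genes higher and 4.09% lower, and against this background 2 of 8 is too small a count to set the genes apart. By unadjusted p, 2 of the 8 were under 0.05 and lower (Txnip and Mlxipl), and DESeq2 called the same 2 at the adjusted threshold. The groups did not overlap for 4 of the 8, with Arrdc3 and Mlxip higher and Txnip and Mlxipl lower, where 30.7% of all genes did not overlap. In whole hearts, fewer cells of a type and less RNA per cell cannot be told apart.

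Txnip RNA summed over the gene was 887, 939 and 886 CPM in WT1 to WT3 and 363, 751 and 670 CPM in KI1 to KI3. All knock-in hearts were below all wild-type hearts, and KI1 was the lowest of the 6. The difference was -0.60 ± 0.20 on the log2 scale (SE), with an adjusted p of 0.0698 by edgeR, which misses the threshold. Without KI1 it was smaller, -0.36, and passed (adjusted p = 0.0344), while without any other single heart it ran from -0.59 to -0.80 with adjusted p of 0.0809 to 0.181. The gene sum hides opposite changes within the gene, which the bins show.

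In exons 1 to 7 Txnip RNA was lower in knock-in hearts by about the same factor in each. Of 22 Txnip bins 18 had enough counts to test, and 12 were lower and 2 higher. Among all 136349 bins tested 6.33% were lower and 8.35% higher. Neighbouring bins share reads, so the bins of a gene are not separate observations. In exon 1, with 526 of its bases in 1 bin, the counts were 3748, 4226 and 4474 in wild-type and 1552, 3048 and 3219 in knock-in hearts, a 1.85-fold lower level (adjusted p = 0.00395). Exon 4 had 2325, 2434 and 2377 counts against 789, 1599 and 1578, a 2.09-fold lower level (adjusted p = 0.00101). In exon 7, which holds the PPxY codons, the counts were 2523, 2627 and 2253 against 893, 1949 and 1680, a 1.91-fold lower level (adjusted p = 0.00518). In each of these the groups did not overlap and KI1 was the lowest heart. Over the 11 called bins in exons 1 to 7 the log2 change ran from -0.87 to -1.14, and each kept its call without any single heart, except the first 3 bases of exon 2, whose adjusted p was 0.0566 without WT1 and 0.0509 without WT2. Without KI1 all 11 were still called, with changes of -0.62 to -0.93.

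The last exon behaved differently. Its first 87 bases, with the stop codon, had 1389, 1393 and 1208 counts in wild-type and 606, 1415 and 1250 in knock-in hearts. Scaled to library size these were 44.6, 44.6 and 38.8 against 19.8, 43.0 and 36.8 CPM, so that KI2 lay among the wild-type hearts and KI1 and KI3 below them. The log2 change of -0.51 ± 0.21 did not pass (adjusted p = 0.124). Beyond them the 3′ UTR turned the other way. Its first bin of 817 bases (chr3:96560566-96561382, GRCm38) had 100, 121 and 89 counts in wild-type and 1057, 2931 and 2876 in knock-in hearts, which is 18.9-fold higher (log2 change 4.24 ± 0.39, adjusted p = 0.00115). The next 475 bases had 38, 44 and 31 counts against 371, 889 and 903, or 16.3-fold higher (log2 change 4.03 ± 0.31, adjusted p = 8.15e-05). The last bins, of 1 and 25 bases, were too poorly covered to test: no wild-type heart had a count in them, and no knock-in heart had more than 3 in either.

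**Figure D2:**
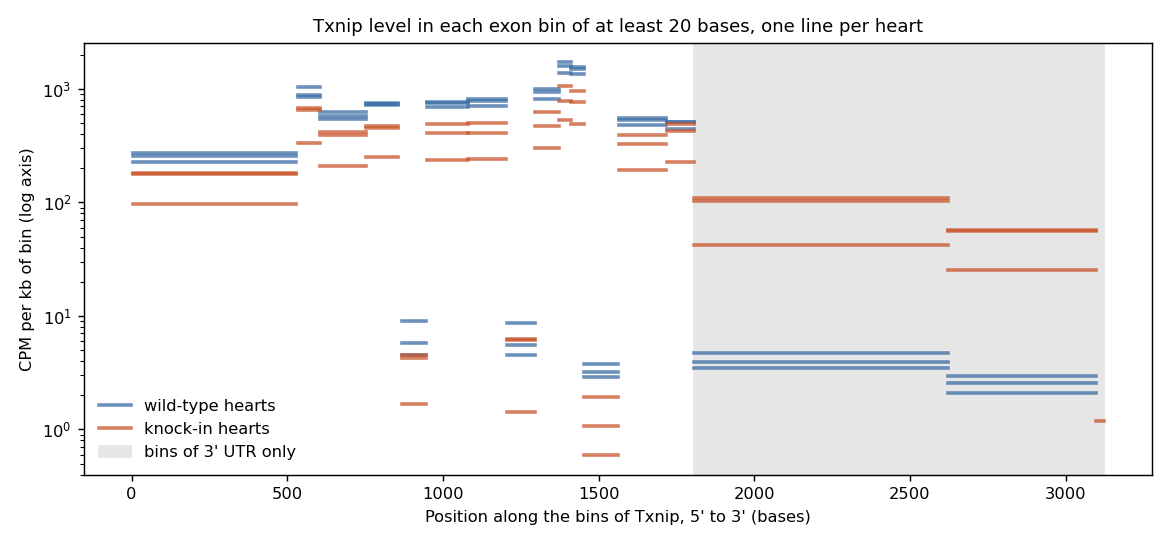
CPM per kilobase of bin (log axis) along the Txnip bins of at least 20 bases, from the 5′ to the 3′ end; each line is 1 bin in 1 heart, wild-type blue and knock-in orange, and grey marks bins of 3′ UTR only. Knock-in lines lie below the wild-type lines through exons 1 to 7, cross them in the 87-base bin at the start of the last exon and lie above them in both long 3′ UTR bins; the low lines between the exons are bins of retained-intron transcripts, and a bin with no count in a heart has no line.

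The share of the gene's signal that each bin held was tested with edgeR's diffSpliceDGE, which compares a bin with the other bins of its gene. Over all genes 1.77% of 134727 bins were called, 0.685% with a gain and 1.09% with a loss of share in knock-in hearts. In Txnip the 2 long 3′ UTR bins gained share (adjusted p = 2.45e-18 and 1.09e-15), and none of the other 16 tested bins passed. Of the other 7 genes, none of 75 bins tested passed for a gain or loss of share, and 11 had an unadjusted p under 0.05. In fits of other settings, the Mlxip 3′ UTR bin lost share without WT3 (adjusted p = 0.0184), and a filter of 30 counts gave 2 Mlxip coding bins a gain of share (adjusted p = 0.0377 and 0.0358).

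Relative to its coding exons, the Txnip 3′ UTR was nearly without reads in the wild-type hearts. Counts per base in the UTR bins were 0.491%, 0.559% and 0.433% of those in the coding bins in WT1 to WT3 and 15.0%, 18.5% and 20.3% in KI1 to KI3. The 3 hearts of a group were close to each other, KI1 included, although its Txnip level was the lowest. The log2 ratios differed by 5.18 (exact permutation test, two-sided p = 0.1, the smallest p that 3 against 3 allows). Both groups are labelled with an engineered Txnip allele, flox or knock-in, and the labels give the structure of neither. In every Txnip value, what the engineering of the alleles sets and what the motif change sets cannot be told apart. That covers the lower levels in the coding exons as well as the UTR values and the gene sum.

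Set beside other genes, it was the wild-type value that lay far from the usual range. The same ratio was computed for the 2807 genes with at least 600 coding counts and at least 200 bases of each part, with 10 counts added to each. In the median gene, UTR counts per base were 37.5% of coding counts per base in wild-type and 28.1% in knock-in hearts. A read counts in every bin it spans, so short bins hold more counts per base. In WT1 the first 3 bases of Txnip exon 2 had 8615 CPM per kilobase and the next 73 bases 847. The ratios here and above therefore depend on bin length and are not shares of reads. In knock-in hearts Txnip ranked 862nd from the bottom, with 30.7% of genes below it, and in wild-type hearts it ranked 32nd, with 1.10% below it. Its difference between the groups, 5.08 on this scale, was the largest of all 2807 genes; the next was 1.05, and 90% of genes lay between -1.07 and 0.16 around a median of -0.39. These ranks describe the hearts and carry no test.

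**Figure D3:**
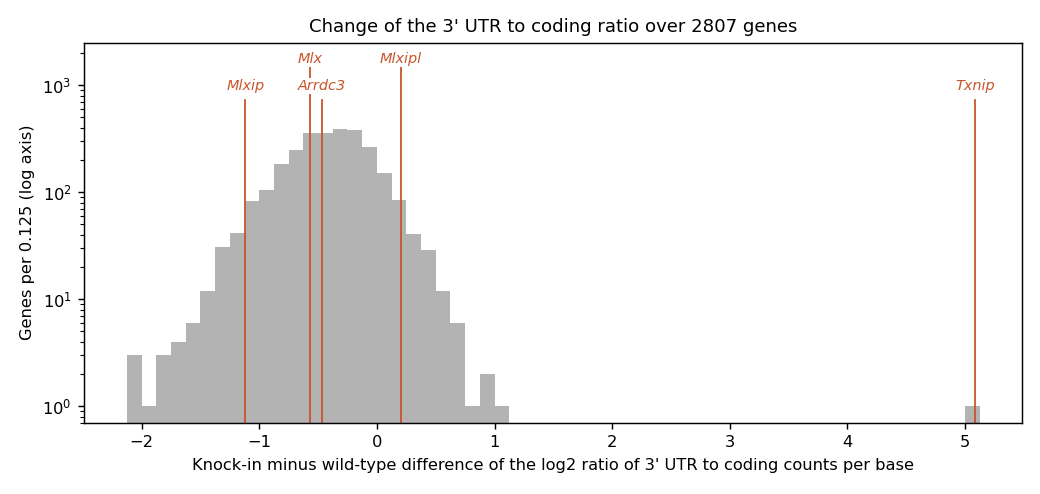
Number of genes (log axis) by the knock-in minus wild-type difference of the log2 ratio of 3′ UTR to coding counts per base, over 2807 genes, with the 5 of the 8 genes that could be compared marked by orange lines. Txnip lies at 5.08, apart from all other genes, while Mlxip, Mlx, Arrdc3 and Mlxipl lie between -1.12 and 0.20.

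Smaller features along Txnip were also read from the bins, picked after their values were seen. The last 3 bases of intron 6 (chr3:96560205-96560207) lie directly before exon 7. They form a bin of their own, so annotated transcripts differ at its edges, and which transcripts its reads came from was not tested. The bin had 34, 35 and 20 counts in wild-type and 25, 72 and 62 in knock-in hearts. As a share of the exon 7 counts these were 1.35% (95% Wilson interval 0.966% to 1.88%), 1.33% (0.960% to 1.85%) and 0.888% (0.575% to 1.37%) in WT1 to WT3. In KI1 to KI3 they were 2.80% (1.90% to 4.10%), 3.69% (2.94% to 4.63%) and 3.69% (2.89% to 4.70%). Every knock-in heart was above every wild-type heart (exact permutation test, two-sided p = 0.1), but the gain of share of this bin did not pass over all bins (adjusted p = 0.127) unless KI1 was left out (adjusted p = 9.64e-05). The 110 bases of intron 6 before these 3 held 11, 13 and 10 counts against 2, 7 and 4, fewer than the 3 bases in each heart. Their level was lower in knock-in hearts (log2 change -1.56 ± 0.50, adjusted p = 0.0385). That call was lost without WT1, WT2, KI1, KI2 or KI3, with adjusted p of 0.0660 to 0.158. The intervals cover counting error only. The first 3 bases of exon 2, which only some transcripts include, had 38.8% to 43.1% of the counts of the rest of that exon in WT1 to WT3 and 38.7% to 41.5% in KI1 to KI3, so the groups overlapped.

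The genes whose levels varied most like those of Txnip over the 6 hearts were Sp100, Abcc5, Acta2, Myh11 and Ift122, at a distance of 0.315 to 0.420 between centred log2 CPM profiles, where the median of 6752 genes was 1.27. Sp100, which encodes a nuclear body protein, was at 29.2, 26.5 and 28.8 CPM in wild-type and 12.7, 20.9 and 19.1 CPM in knock-in hearts (log2 change -0.68, adjusted p = 0.0280). Acta2 and Myh11 encode the actin and myosin of smooth muscle. The 5 smooth muscle and pericyte markers summed to 479, 492 and 452 CPM in wild-type and 248, 366 and 439 CPM in knock-in hearts. Acta2 and Myh11 are among these 5 and were named for their likeness to Txnip, so this sum partly repeats that choice. The 5 endothelial markers summed to 499, 351 and 434 against 264, 399 and 431 CPM. Called lower were 3 of the former and 2 of the latter, where 4.09% of all genes tested were lower. Of 4 fibroblast and 4 macrophage markers none was called. In the smooth muscle and the endothelial sum, as for Txnip, KI1 was the lowest heart. The part of these cells in the Txnip level was not tested.

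Of the other alpha-arrestins only Arrdc3 changed at the gene level. Arrdc3, an adaptor of beta-adrenergic receptors that affects body mass in mice, was at 19.1, 22.0 and 20.9 CPM in wild-type and 26.0, 33.1 and 28.7 CPM in knock-in hearts. The groups did not overlap, and the level was 1.42-fold higher (log2 change 0.50 ± 0.14, adjusted p = 0.0351 by edgeR). The call was lost without WT1 (adjusted p = 0.166), WT2 (0.106), KI2 (0.176) or KI3 (0.0900), with changes of 0.41 to 0.53. Along the gene the change was largest at the 5′ end: the 520-base exon 1 bin had 29, 47 and 46 counts against 66, 100 and 96, a 1.86-fold higher level (log2 change 0.90 ± 0.22, adjusted p = 0.0115), lost without WT1 (0.0781) or KI2 (0.0767). In the 3′ UTR bin of 1709 bases there were 207, 239 and 224 counts against 208, 261 and 296, with a log2 change of -0.01. Of 10 Arrdc3 bins tested, exon 1 was the only one called, a share near the 8.35% of all bins called higher. The exon 7 bin, which holds both PPxY motifs, had 52, 49 and 53 counts against 73, 104 and 68 (log2 change 0.47 ± 0.21, adjusted p = 0.138).

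Arrdc2, an adaptor of the same branch, varied more within the groups than between them. It was at 26.0, 14.7 and 3.25 CPM in WT1 to WT3 and 14.5, 9.40 and 4.03 CPM in KI1 to KI3. The groups overlapped fully, and the log2 change of -0.66 ± 0.63 did not pass (adjusted p = 0.544); without WT1 it was 0.018. None of 11 bins tested was called, nor had any an unadjusted p under 0.05; without WT3 the bins numbered 15, 17 and 19 from the 5′ end were called lower (adjusted p of 0.0140 to 0.0484), and without KI1 bin 15 was (0.0151). Both exon 7 bins followed the gene, with 72, 39 and 7 counts against 35, 34 and 11 in the larger one.

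Arrdc4, like Txnip a MondoA target, and Arrdc1, known for the budding of vesicles from the cell membrane, were near the lower end of what the test could use. Arrdc4 was at 4.88, 2.91 and 3.86 CPM in wild-type and 2.87, 3.04 and 3.73 CPM in knock-in hearts. The groups overlapped (log2 change -0.27 ± 0.24, adjusted p = 0.496), and none of 4 bins tested was called or had an unadjusted p under 0.05. Arrdc1 was at 3.02, 2.30 and 2.25 against 2.12, 1.34 and 3.91 CPM, again overlapping (log2 change -0.04 ± 0.34, adjusted p = 0.959). None of the 36 Arrdc1 bins had enough counts to test; its exon 7 bin with the first PPxY motif held 5, 3 and 11 counts against 2, 6 and 8. With an SE of 0.34, a log2 change of the size seen for Arrdc3 was not detectable for Arrdc1 at this depth.

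Among the Mondo factors, Mlxip was higher in knock-in hearts. Mlxip, which encodes MondoA, was at 15.7, 16.5 and 15.9 CPM in wild-type and 21.1, 23.7 and 24.6 CPM in knock-in hearts. The 3 wild-type hearts were within 1.05-fold of each other and all below the knock-in hearts, and the level was 1.44-fold higher (log2 change 0.53 ± 0.13, adjusted p = 0.0257). The call was lost without WT1 (adjusted p = 0.117), WT2 (0.103), KI2 (0.120) or KI3 (0.0983), with changes of 0.47 to 0.53. Of 19 bins tested, 6 were called higher, where 8.35% of all bins tested were higher. Neighbouring bins share reads, so these are not 6 separate observations. All 6 were in exons 6 to 11, with log2 changes of 0.93 to 1.53. The tested bins of the exons around them were not called but had changes of 0.56 to 0.79 in exons 2 to 5 and of 0.64 to 0.98 in exons 12 to 16. The bin with the coding end of exon 17 was just short of the threshold, and with DESeq2 size factors it was called (log2 change 1.004, adjusted p = 0.0492). The bin of exon 1 was at 0.046. In exon 10 a bin of 122 bases had 12, 11 and 8 counts against 34, 28 and 31, a 2.60-fold higher level (adjusted p = 0.00824), which was kept without any single heart. Each of the other 5 lost its call without at least 1 of WT1, WT2, KI1 and KI2, with adjusted p of 0.0504 to 0.101.

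The long Mlxip 3′ UTR did not follow. Its bin of 4383 bases had 326, 307 and 265 counts in wild-type and 250, 311 and 368 in knock-in hearts, and the groups overlapped (log2 change -0.16 ± 0.15, adjusted p = 0.506). With only coding bins the Mlxip change was 1.12 (adjusted p = 0.00558), and with only UTR bins -0.016 (adjusted p = 0.962), alternatives chosen after seeing the data. The log2 ratio of the last to the first of 3 parts went from 1.49, 1.32 and 1.23 in wild-type to 0.06, 0.28 and 0.51 in knock-in hearts. Its last part held the whole bin of 4383 bases. Many long genes showed a fall of this ratio, as given above, and its part in the change of Mlxip was not tested. The UTR to coding difference of Mlxip was -1.12, slightly beyond the lower limit of -1.07 that 5% of genes passed.

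Mlxipl, which encodes ChREBP, was at 20.4, 14.9 and 14.1 CPM in wild-type and 13.22, 11.04 and 9.79 CPM in knock-in hearts. The groups did not overlap, but the nearest hearts, WT3 and KI1, were close, and the log2 change of -0.54 ± 0.18 missed the threshold (adjusted p = 0.0724). It passed without WT3 (log2 change -0.64, adjusted p = 0.0301) or without KI1 (-0.67, 0.0240), and by DESeq2 (adjusted p = 0.0349). Of 18 bins tested, 2 were called, both lower, where 6.33% of all bins tested were lower. This is too small a count to set the gene apart. Without WT3 6 more were called, also lower. The 681-base bin of the last exon had 114, 78 and 57 counts against 56, 45 and 47, a 1.93-fold lower level (adjusted p = 0.0154), lost without WT1 (0.137), KI2 (0.0930) or KI3 (0.0602). The exon 11 bin was 1.91-fold lower (adjusted p = 0.0465) and lost its call without WT1, WT2, KI2 or KI3, with adjusted p of 0.116 to 0.185.

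Mlx, the shared partner of both, was at 26.6, 24.0 and 21.8 CPM in wild-type and 23.0, 21.2 and 17.4 CPM in knock-in hearts. The groups overlapped, and the log2 change of -0.23 ± 0.15 did not pass (adjusted p = 0.331). Of 13 bins tested, 2 were called, both in the last exon and both lower, where 6.33% of all bins tested were lower. This count too is too small to set the gene apart. The 689-base 3′ UTR bin had 106, 89 and 87 counts in wild-type and 54, 54 and 59 in knock-in hearts, with no overlap and a 1.94-fold lower level (adjusted p = 0.00319), a call kept without any single heart. The 372-base bin before it was 1.54-fold lower (adjusted p = 0.0282), lost without WT1, WT2, KI2 or KI3 (adjusted p of 0.0896 to 0.124). No Mlx bin changed its share of the gene by the usage test.

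**Figure D4:**
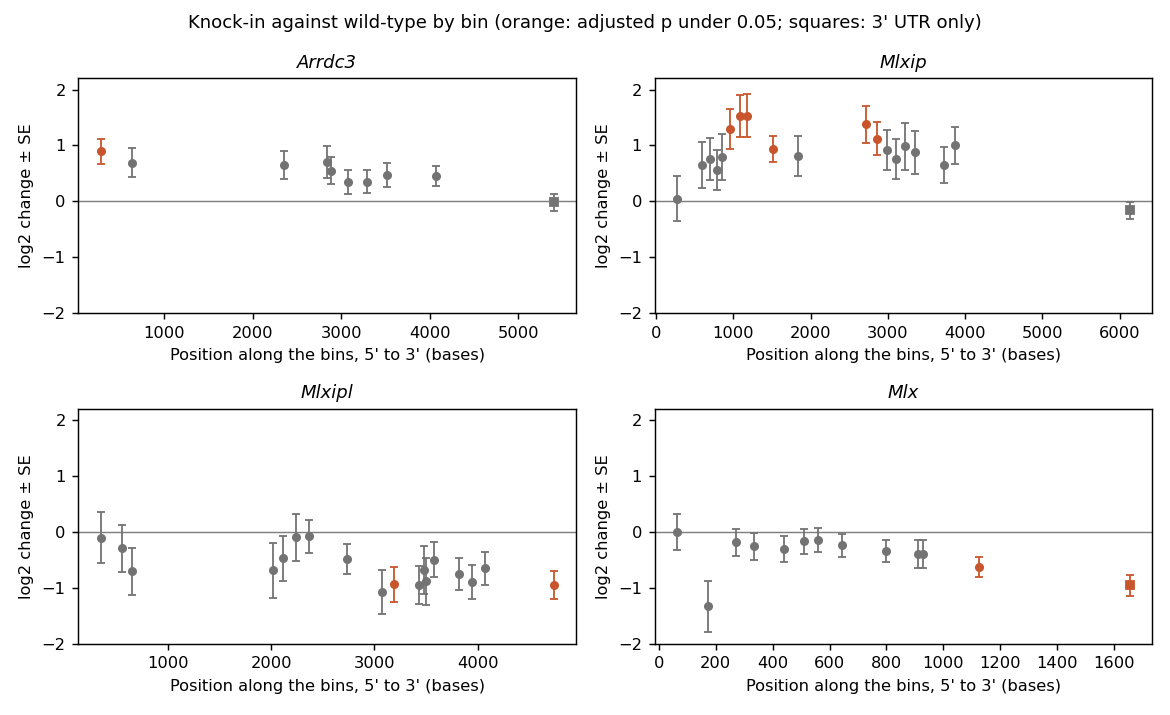
log2 change ± SE of each tested bin in knock-in against wild-type hearts (3 each), by the position of its middle along the bins from the 5′ to the 3′ end, for Arrdc3, Mlxip, Mlxipl and Mlx; orange marks an adjusted p under 0.05 and squares bins of 3′ UTR only. Mlxip bins lie above 0 in exons 2 to 17, with those called in exons 6 to 11, and its 3′ UTR bin lies at -0.16; Arrdc3 is called in exon 1, Mlx in its last exon and Mlxipl in exon 11 and its last exon.

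The ratio of the last to the first of 3 parts did not move alike in the 8 genes. It was lower in all knock-in than in all wild-type hearts for Arrdc3, Mlxip and Mlx, by 0.75, 1.06 and 0.66 on the log2 scale. The median of the 1700 long genes was also lower in all knock-in hearts, by 0.65, and Arrdc3 and Mlx were near that value. Neither gene met the limits of length and counts set for the long genes. The shift of genes as short or as low as these was not computed. The share of all genes without overlap of this ratio was not computed. The ratio was higher for Txnip by 5.02 and for Arrdc1 by 0.91, and the groups overlapped for Arrdc2, Arrdc4 and Mlxipl. The Arrdc1 value rests on very few counts in its first part. There its exon 2 bin had 2, 2 and 4 in wild-type and 3, 0 and 3 in knock-in hearts. These sizes depended on the setting: with each gene cut in 2 the difference was 1.29 for Txnip and -0.36 for Arrdc3, and with 1 count added in place of 10 it was 2.16 for Arrdc1. For each of the 5 the exact permutation p was 0.1, the smallest possible.

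In a list of genes known as targets of the Mondo factors, more were called higher than lower. Txnip and Arrdc4, MondoA targets as well, were not on this list. Their log2 changes were -0.60 and -0.27, and edgeR called neither. Of 23 on the list 17 were tested: 7 were higher, none was lower (3 by unadjusted p, 0 by DESeq2), where 6.74% of all genes tested were higher and 4.09% lower, and the median log2 change was 0.15, beside -0.0043 over all genes. An adjusted p under 0.05 was reached by Gpd1, Me1, Fasn, Klf10, Acacb, Hk2 and Acaca. Gpd1, a glycerol phosphate dehydrogenase, was at 43.5, 43.1 and 41.7 CPM against 66.0, 56.5 and 56.7 CPM, 1.40-fold higher (adjusted p = 0.0217). Klf10, a transcription factor, was at 3.79, 3.20 and 2.96 against 4.64, 6.97 and 6.15 CPM, 1.78-fold higher (adjusted p = 0.0295). Me1, the cytosolic malic enzyme, and Fasn, fatty acid synthase, were 1.34-fold and 1.40-fold higher (adjusted p = 0.0248 and 0.0289), without overlap of the groups.

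The list's calls were not stable, and neither were those of all genes. No gene of the list was called higher without WT1, WT2, KI2 or KI3, 8 were without WT3 and 7 without KI1. Over all genes the 881 higher calls of the main settings became 127, 149, 105 and 268 without WT1, WT2, KI2 and KI3. They were 1544 without WT3 and 1166 without KI1. Counting only the bin with the highest mean of each gene left 1 higher call on the list and 377 over all genes. Fasn, Acacb and Acaca then had changes of -0.39, -0.16 and -0.13. Among genes of the list that did not pass, Tkt and Rgs16 had lower levels in all knock-in than in all wild-type hearts, at log2 changes of -0.37 and -1.56 (adjusted p = 0.0822 and 0.0788), and Slc2a4, the insulin-regulated glucose transporter, had 573 ± 42.7 CPM in the wild-type group and 608 ± 11.2 in the knock-in group.

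In the network of Max and Mlx, 8 of 10 genes were tested and 1 was higher, a single call that does not set the network apart from the 6.74% of all genes. Max, the partner of Myc and the Mxd proteins, was at 16.4, 18.5 and 17.3 CPM in wild-type and 26.8, 26.3 and 24.3 CPM in knock-in hearts, without overlap and 1.48-fold higher (adjusted p = 0.0192). It passed with only the last or first 1000 exonic bases too, but not without WT1 (adjusted p = 0.105), WT2 (0.0731) or KI2 (0.0978). Mxi1, Mxd1 and Mga had log2 changes of 0.43, 0.57 and 0.46 and did not pass (adjusted p of 0.0596 to 0.289). Of 8 other genes with an arrestin fold 6 were tested and none passed by edgeR. By unadjusted p, Arrb2, Vps26a and Vps26b were under 0.05, at log2 changes of -0.54, 0.30 and 0.35, and by DESeq2 these and Arrb1 had adjusted p of 0.0507 to 0.222.

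All 13 partners of alpha-arrestins were tested, and 1 was higher, a share near the 6.74% of all genes. Nedd4, a ubiquitin ligase whose WW domains bind PPxY motifs, was at 273, 295 and 412 CPM in wild-type and 497, 615 and 609 CPM in knock-in hearts, 1.76-fold higher without overlap (adjusted p = 0.00885). Its change was 0.81 ± 0.15 over the whole gene but 0.12 over the last 1000 exonic bases (adjusted p = 0.557) and 0.03 in its highest bin (0.930), and without WT1, WT2 or KI2 it did not pass (adjusted p of 0.0583 to 0.0621). Itch and Wwp1, ligases of the same family, had log2 changes of 0.51 and 0.39 and did not pass (adjusted p = 0.0676 and 0.0687). Txn1, the thioredoxin that Txnip binds, had 70.3 ± 8.71 CPM in the wild-type group and 72.4 ± 6.96 in the knock-in group, and Slc2a1, a glucose transporter that Txnip brings into the cell, 28.2 ± 1.26 and 30.7 ± 3.42 CPM.

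Over the 6 hearts, the levels most like those of Mlxip were of Hbp1, Klf9, Tnni3k, Fam168a and Fig4, at distances of 0.0885 to 0.128 where the median of 6752 genes was 0.680. Hbp1, a transcriptional repressor, was at 71.5, 75.4 and 76.7 CPM in wild-type and 98.0, 106 and 110 CPM in knock-in hearts. Those most like Arrdc3 were Sidt2, Golph3l, Srpr, Ttc17 and Npc1, at 0.117 to 0.148 (median 0.693), and Npc1, the lysosomal cholesterol transporter, was at 21.7, 25.6 and 26.5 against 33.2, 39.7 and 34.9 CPM. A small distance only says that the levels moved alike in these 6 hearts.

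**Figure D5:**
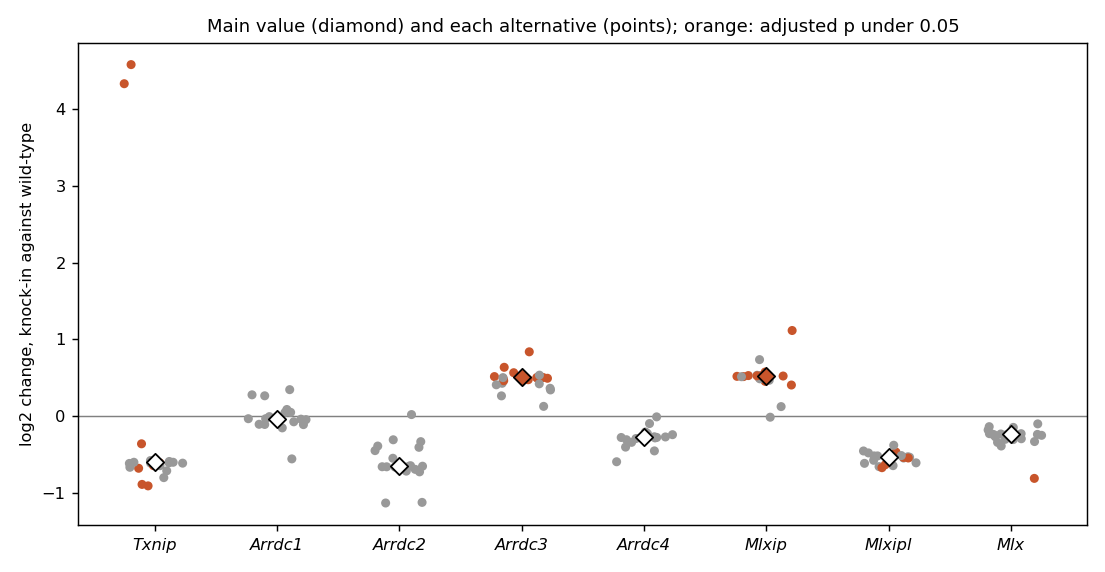
log2 change of each gene (knock-in against wild-type) with the main settings (diamond) and under each other setting tried (points, including hearts left out); orange marks an adjusted p under 0.05. Arrdc3 stays above 0 in all 21 alternatives and Mlxip in 19 of 20, Mlxipl stays below 0 in all 20, and Txnip is near 4 in the 2 settings that count its 3′ end alone.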

How the data were processed

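The values are raw counts from a deposited table with 1 row per exon bin and 1 column for each of the 6 hearts, without normalization. Per the labels' protocols RNA was isolated with a column kit and libraries were made with NEBNext Ultra II. Per the submitters' processing notes, the build was GRCm38.p6 and the tools were STAR, featureCounts, Subread 1.5.2 and DESeq2, named without roles or settings. A read was counted in every bin it spans, so a gene's sum is not a number of reads, and coverage at either end of a transcript moves it. No value column was left unused.

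Bins were summed per gene identifier, and names, exons and coding positions came from GENCODE M21. The main transcript of a gene is its basic CCDS transcript of longest coding sequence. Genes and bins were filtered with filterByExpr, scaled by TMM, and tested in edgeR 4.0.16 (robust quasi-likelihood, limma 3.58.1, R 4.3.3), all 6 hearts in one fit, with Benjamini-Hochberg adjustment over all features tested. Bin usage was tested with diffSpliceDGE, and ratios with exact permutation tests. CPM are computed here with TMM library sizes. Wilson intervals cover 95%. The gene, bin and bin usage tests were tried on simulated data. The ratios, profile distances, marker sums and motif searches were not. Alternatives covered scaling, filters, the bins summed, DESeq2 1.42.0 and each heart left out. Settings of the first or last 1000 exonic bases took whole bins by the place of their middle, as did the parts of the exons.

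The 8 genes, the gene lists and the markers were chosen with earlier results of these data known. Named are the 8 genes, up to 4 genes of each list by smallest p, the 5 genes of mean CPM of at least 10 nearest to Txnip and to each called gene by profile, all Txnip bins and each other called bin; other names, such as the remaining called Mondo targets, Slc2a4, Txn1 and Slc2a1, were chosen after their values were seen.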

Additional observations from a re-analysis of the deposited data

How the results depend on the processing

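Txnip summed over all bins stayed below 0 in 19 of 21 alternatives; it was 4.58 (adjusted p = 0.00571) with only the last 1000 exonic bases and 4.34 (0.00105) with only 3′ UTR bins, the bins that rose. It passed the threshold as lower with upper-quartile scaling (-0.68), DESeq2 (-0.61), a filter of 50 counts (-0.65), the first 1000 bases (-0.91) and only coding bins (-0.89); with hearts left out it ran from -0.80 to -0.36. The last alternatives, by coding or UTR bins, were chosen after seeing the data. The Txnip 3′ UTR to coding difference ran from 5.08 to 5.30 in all alternatives.

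Of the 8 genes, 2 were higher in the main settings. That count was 1 with upper-quartile scaling, the last or first 1000 bases, the length and GC correction or 3′ UTR bins, 0 with the highest bin, and 0 to 2 with hearts left out. The 1 gene was Mlxip with upper-quartile scaling and the correction, Arrdc3 with the first 1000 bases, and Txnip, neither of the original 2, with the last 1000 bases and 3′ UTR bins. The count lower, 0, was 2 with DESeq2, 1 with upper-quartile scaling, no filter, a filter of 50 counts, the first 1000 bases, the length and GC correction, coding bins or 3′ UTR bins, and 0 to 2 with hearts left out. The 7 Mondo targets called higher became 2 with upper-quartile scaling, 1 with the highest bin or last 1000 bases, 3 with the first 1000 and 0 to 8 with hearts left out. The 0 lower became 1 with upper-quartile scaling or the length and GC correction, and 0 to 1 with hearts left out.

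Bins of the other 7 genes called higher, 7, were 3 with a filter of 30 counts and 1 to 12 with hearts left out; those lower, 4, were 1 to 13. Those that gained share, 0, were 2 with that filter, and those that lost share 0 to 1 with hearts left out. Over all genes 881 higher and 534 lower calls became 594 and 734 with upper-quartile scaling, 377 and 235 with the highest bin and 130 and 147 with the last 1000 bases; lower calls were 877 without a filter. With hearts left out they ran from 105 to 1544 higher and from 59 to 917 lower, least without KI2.

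Changes of sign, none past the threshold: Arrdc1 was 0.34 with the last 1000 bases, 0.28 with the length and GC correction, 0.047 from coding bins and -0.56 to 0.26 with hearts left out. Arrdc2 ran from -1.14 to 0.018 with hearts left out, and Mlxip was -0.016 from UTR bins. With the highest bin Fasn was -0.39, Acacb -0.16, Acaca -0.13 and Mga -0.34; with the last 1000 bases Acacb was -0.063 and Arrb2 0.054. The log2 ratio of last to first part differed by 0.26 for Arrdc2 when each gene was cut in 2, and with hearts left out ran from -0.15 to 0.031 for Arrdc2, -0.27 to 0.43 for Arrdc4 and -0.47 to 0.086 for Mlxipl. The cause of these moves was not tested. No paired analysis was possible because the replicate numbers follow the order of the labels and pair no hearts. Mlxip, Fasn and Acaca had too few counts to test in bins whose middle lay in the last 1000 bases. The 4383-base 3′ UTR bin of Mlxip was left out by that rule, as its middle lies further up. Counts under about 10 per bin, as in Arrdc1 and Arrdc4, limit what could be tested.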

Other observations

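Arrdc2 ran from 3.25 CPM in WT3 to 26.0 CPM in WT1, and the highest knock-in heart was 3.61-fold above the lowest. Of 8839 genes with a mean of at least 5 CPM, 99.98% had a smaller ratio of highest to lowest among the wild-type hearts, whose median was 1.23, while the ratio was 1.06 for Txnip and 1.05 for Mlxip. The genes most like Arrdc2 over the 6 hearts, looked up after its values were seen, were Cebpb, Irf7, Adh1, Zfp36 and Pim3, at distances of 1.49 to 1.81, where the median gene was at 2.65. Cebpb, a transcription factor, was at 16.7, 17.2 and 6.59 CPM in wild-type and 10.9, 5.60 and 4.82 CPM in knock-in hearts. Zfp36, which promotes decay of RNA with AU-rich elements, was at 32.1, 26.5 and 9.74 against 10.3, 16.1 and 12.6 CPM. None of the 5 differed between the genotypes past the threshold (adjusted p of 0.119 to 0.865), and WT3 was the lowest wild-type heart for each.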
